A study of Macaca mulatta with 22 samples.

Results

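Immature oocytes of the rhesus macaque were compared with mature ones in 7 single-cell libraries, taken by their stage label from a series of 22 single oocytes and embryos. The immature group held 4 oocytes, 2 at the germinal vesicle stage (GV) and 2 at metaphase I (MI), and the mature group held 3 oocytes at metaphase II (MII). Per the labels, all 7 were collected after death from donors that had been superovulated, and each library was made from 1 whole oocyte. No genotype, age, animal or method of maturation is given in the sources used here, so oocytes of a group may share a donor. The tests rest on the spread between libraries within a stage, estimated over all 22 oocytes and embryos. That spread need not be one between donors. Each library was primed on poly(A) with the SMARTer Ultra Low Input kit. The authors deposited the values as RPKM, a read count scaled to transcript length and to the library's total reads, for 35468 entries, so each value is relative to the other RNA captured from the same oocyte. Coordinates are printed as deposited, and the build is Mmul_8.0.1 per the submitters' processing notes.

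An oocyte waits in prophase of meiosis I with its nucleus, the germinal vesicle, intact. The ovulatory hormone surge releases the arrest, the nucleus breaks down, the cell passes metaphase I, expels a polar body and stops again at metaphase II until sperm enters. The full-grown oocyte is nearly silent in transcription, so maturation is run from stored mRNA. Known control acts through the poly(A) tail: dormant mRNAs with short tails gain long ones by cytoplasmic polyadenylation and are then translated, while others lose their tails and are degraded.

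The libraries held an estimated 12185000 to 21505000 reads. Entries at 1 RPKM or more numbered 9371 to 10017 in the immature oocytes and 8048 to 8566 at MII, and the 10 most abundant entries took 16.6% to 19.4% of summed RPKM against 22.5% to 28.7%. The oocyte identity of the libraries was visible in all 7. The zona pellucida genes ZP2, ZP3 and ZP4 had no value under 196 RPKM, and the germline RNA-binding gene DAZL none under 88.6. The secreted factors GDF9 (IMMRNTR2410) and BMP15 had none under 31.4. Of the other oocyte markers, H1FOO had none under 162 and NLRP5 none under 29.0. ZP1 (5.54 to 23.1 RPKM) and FIGLA (4.81 to 93.2) went lower. Between libraries, the correlation of log2(RPKM + 1) across tested entries, which are not independent replicates, was 0.97 within GV and within MI, 0.94 to 0.96 within MII, 0.94 to 0.95 between GV and MI, and 0.85 to 0.91 between MII and the immature stages. MII library 2 weighed most on the calls reported here, and the values without it are given where a call depends on it.

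Far more transcripts were lower at MII than higher. In limma on log2(RPKM + 1), 2075 of 14312 tested entries (14.5%) had an adjusted p under 0.05 for MII minus the mean of the GV and MI means, 256 of them higher (1.79%). Of the 2075, 2059 (14.4%) went the same way from GV and from MI, and only such entries are said to rise or fall at MII in what follows: 1807 fell (12.6%) and 252 rose (1.76%). The median log2 difference was -1.92 for those that fell (-2.01 from GV and -1.86 from MI) and 1.48 for those that rose (1.22 from GV and 1.71 from MI), and -0.18 over all tested entries. Because the libraries were primed on poly(A), a lower value can be less RNA or a shorter tail, and a higher value more RNA or a longer tail, and these cannot be told apart here.

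The split between the directions moved with scaling. With median-of-ratios scaling, which moved the median of all tested entries by 0.13 to -0.05, 846 entries fell and 299 rose, a share of 26.1% higher in place of 12.2%. Of the 2059 entries, 846 remained lower and 217 remained higher under that scaling. Leaving out each oocyte library in turn gave 922 to 1399 lower and 105 to 192 higher, with both minima without MII library 2 (1156 lower without GV library 1). In every one of these 7 fits, 788 entries remained lower and 62 remained higher. The spread is shared with the embryo stages in these fits, and a fit of the 7 oocytes alone called 3186 lower and 1149 higher. Leaving out Mo library 2, a morula with few detected entries, gave 479 higher.

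The groups did not overlap for 1719 of the 1807 entries that fell and 226 of the 252 that rose. Over all tested entries, values of the 4 immature and the 3 MII oocytes did not overlap for 26.1% on the lower side and 10% on the higher. The comparisons from each immature stage share the MII libraries. Taken alone, MII minus GV called 1284 lower (8.97%) and 49 higher (0.342%), and MII minus MI called 1000 lower (6.99%) and 213 higher (1.49%). Entries called in both numbered 703 lower (4.91%) and 35 higher (0.245%).

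The share of each library's RNA signal shows the size of the shift. Entries that fell took 21.6% and 21.1% of summed RPKM at GV and 20.8% and 20.0% at MI, but 4.65%, 3.13% and 5.30% at MII. Entries that rose took 3.31% and 3.27% at GV, 2.99% and 3.27% at MI, and 8.72%, 9.46% and 7.38% at MII. These entries were chosen for this difference, so the shares describe its weight in the libraries.

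**Figure D1:**
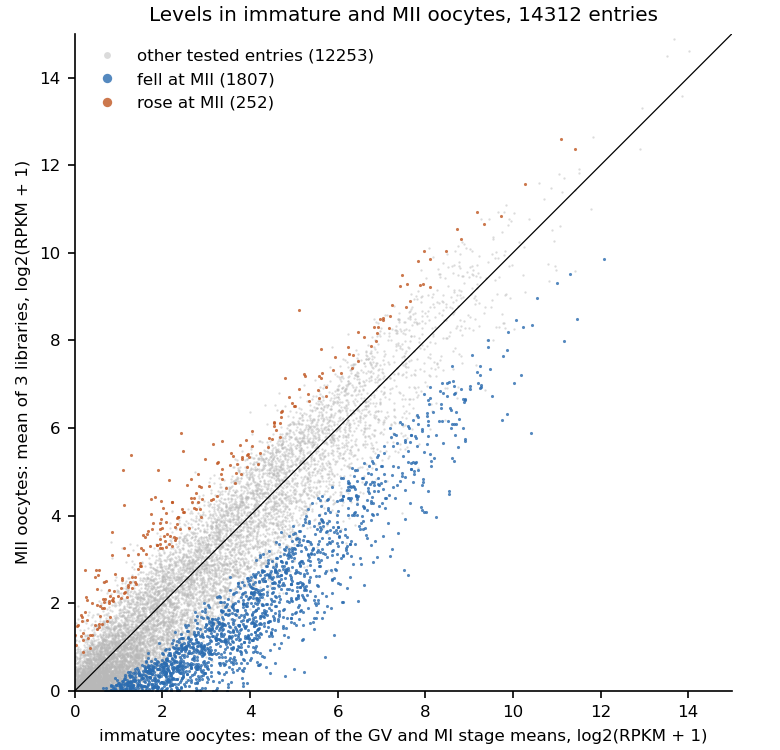
Each point is 1 of 14312 tested entries, with its level in immature oocytes (mean of the GV and MI stage means) on the x axis and its mean over the 3 MII oocytes on the y axis, both as log2(RPKM + 1). The 1807 entries that fell (blue) lie under the diagonal at all levels, and the 252 that rose (orange) lie above it.

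Values are given for each oocyte, or as the mean ± SD over the 4 immature and the 3 MII oocytes. The 12 largest changes in each direction come first, and non-overlap of the groups was a condition of their choice. LGALS4, a galectin that binds sugars on membrane proteins (chr19:45144615-45155169), had 208 and 205 RPKM at GV, 233 and 139 at MI and 3.58, 3.15 and 11.8 at MII. Its log2 difference was -4.96 (SE 0.63, adjusted p = 8.59e-05), and every MII oocyte was far under every immature one. FDPS, which makes the farnesyl diphosphate from which cholesterol and prenyl groups are built (chr1:133870788-133883092), had 60.3 and 56.6 RPKM at GV, 75.1 and 49.1 at MI and 5.15, 1.09 and 0.0930 at MII. Its log2 difference was -4.65 (SE 0.67, adjusted p = 2.22e-04). NDUFA9, a subunit of respiratory complex I (chr11:4753383-4792738), was under 1 RPKM in each MII oocyte, with 26.5 and 32.6 RPKM at GV, 43.05 and 25.4 at MI and 0.0240, 0.408 and 0.950 at MII, a log2 difference of -4.51 (SE 0.63, adjusted p = 1.5e-04).

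PRDX2, a peroxiredoxin that removes hydrogen peroxide (chr19:12457831-12463821), had 298 and 249.7 RPKM at GV, 362 and 310.2 at MI and 10.1, 9.77 and 31.7 at MII. The log2 difference was -4.27 (SE 0.49, adjusted p = 3.66e-05). SPR, sepiapterin reductase of tetrahydrobiopterin synthesis (chr13:73181813-73186465), had 141 and 86.7 RPKM at GV, 77.2 and 89.3 at MI and 4.99, 4.51 and 3.65 at MII and a log2 difference of -4.18 (SE 0.59, adjusted p = 1.78e-04). RTCB, the ligase that joins tRNA exons (chr10:76305943-76331868), had 43.9 and 31.1 RPKM at GV, 37.3 and 32.8 at MI and 2.15, 1.16 and 0.688 at MII. In each of these genes the 3 MII oocytes lay under all 4 immature ones, as the choice required.

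CCDC167, a coiled-coil protein gene, was the most abundant of this set, at 1854 and 1742 RPKM at GV, 1092 and 980.3 at MI and 69.2, 31.9 and 90.6 at MII, and its log2 difference was -4.52 (SE 0.86, adjusted p = 0.00191). S100A11, a calcium-binding protein gene, had 97.01 and 79.9 RPKM at GV, 78.7 and 94.2 at MI and 3.83, 0.489 and 9.01 at MII. MRPS15, of the small mitochondrial ribosomal subunit, had 24.3 and 27.5 RPKM at GV, 18.4 and 15.5 at MI and 1.35, 0 and 0 at MII, so 2 of 3 MII oocytes were listed at 0. CDK5, a cyclin-dependent kinase, had 39.6 and 189 RPKM at GV, 227 and 254 at MI and 4.49, 4.78 and 18.1 at MII, and its lowest immature value, in GV library 1, was still above the highest at MII.

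Among the 12 largest falls, the calls of LAMTOR4 and MED31 did not hold without every library. LAMTOR4, a part of the lysosomal Ragulator complex that recruits mTORC1, had 233 and 234 RPKM at GV, 149 and 139 at MI and 9.03, 0.476 and 20.4 at MII, a log2 difference of -4.76 (SE 1.16, adjusted p = 0.00938) and an adjusted p of 0.0836 without MII library 2. MED31, a Mediator subunit, had 94.8 and 124 RPKM at GV, 43.1 and 42.4 at MI and 8.70, 0.699 and 3.03 at MII and a log2 difference of -4.09 (SE 1.11, adjusted p = 0.0183). Its call ended without GV library 2, MI library 1, MII library 2 or MII library 3, with the highest adjusted p at 0.113 without MII library 2, and under scaling it was 0.051.

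The largest rises had lower starting levels, but the choice of genes itself favoured this. It required a minimum mean level in the higher group, which was the immature group for falls and the MII group for rises. The starting levels are therefore a description only. IFI27, an interferon-induced mitochondrial protein gene (chr7:157340956-157346915), had 5.69 and 0.875 RPKM at GV, 0.760 and 0.600 at MI and 67.9, 42.7 and 23.3 at MII. The log2 difference was 4.10 (SE 0.58, adjusted p = 1.85e-04), and the highest immature value came from GV library 1. RAB13, a small GTPase of vesicle traffic and tight junctions (chr1:132497005-132501391), had 1.96 and 2.88 RPKM at GV, 0.202 and 0.559 at MI and 34.8, 45.9 and 20.1 at MII and a log2 difference of 3.93 (SE 0.57, adjusted p = 2.45e-04). TMSB10, a thymosin that binds actin monomers (chr13:85457957-85458981), was the most abundant of the 12 at MII, with 132 and 39.3 RPKM at GV, 8.66 and 27.04 at MI and 496, 568 and 255 at MII. Its immature oocytes spread widely, and the log2 difference was 3.59 (SE 0.82, adjusted p = 0.0062).

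SLC19A2, a thiamine transporter (chr1:199172648-199191424), had 1.33 and 1.10 RPKM at GV, 1.37 and 0.884 at MI and 16.8, 10.04 and 34.05 at MII and a log2 difference of 3.14 (SE 0.56, adjusted p = 0.00116). ACTA2, a smooth muscle actin (chr9:88514985-88574330), had 11.9 and 7.48 RPKM at GV, 4.59 and 5.35 at MI and 46.7, 35.2 and 34.6 at MII, a log2 difference of 2.32 (SE 0.34, adjusted p = 2.64e-04). KLF2, a zinc finger transcription factor (chr19:15864066-15865909), had 7.14 and 8.36 RPKM at GV, 2.71 and 4.59 at MI and 34.9, 24.2 and 25.3 at MII and a log2 difference of 2.19 (SE 0.39, adjusted p = 0.00105). FUBP3, an RNA-binding protein gene, had 7.86 and 7.40 RPKM at GV, 5.37 and 4.10 at MI and 41.3, 32.9 and 19.8 at MII. TSTD2 had 13.5 and 9.75 RPKM at GV, 5.92 and 9.46 at MI and 49.7, 65.7 and 41.6 at MII. In each of these genes all MII oocytes were above all immature ones, as in all 24 genes by choice, and none lost its call when 1 oocyte library was left out. The call of TSTD2 ended with a pseudocount of 0.1 (adjusted p = 0.102).

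The other 4 of the 12 largest rises were less firm. HMGN5, a nucleosome-binding protein gene, had 8.83 and 1.13 RPKM at GV, 5.25 and 2.02 at MI and 17.01, 39.6 and 29.8 at MII, and its adjusted p rose from 0.0112 to 0.0684 without MII library 2 (the call also ended without GV library 2 and MI library 2). LIG4, the ligase of non-homologous end joining, had 0.544 and 4.83 RPKM at GV, 6.10 and 1.47 at MI and 17.8, 19.6 and 24.0 at MII, and its adjusted p rose from 0.0171 to 0.0875 without GV library 1 (the call also ended without MI library 2, MII library 2 and MII library 3). KCTD13, an adaptor of a ubiquitin ligase, had 9.26 and 2.60 RPKM at GV, 4.13 and 5.36 at MI and 22.6, 30.6 and 22.9 at MII, and its adjusted p of 0.011 became 0.0589 without MII library 2 and also ended without GV library 2. DNA2, a nuclease and helicase of replication and end resection, had 3.16 and 3.95 RPKM at GV, 2.56 and 2.57 at MI and 6.59, 23.6 and 31.03 at MII, and its adjusted p of 0.0326 became 0.143 without MII library 3, with the call kept only without MII library 1 and lost under scaling (0.0569). The other entry named DNA2 (IMMRNTR5731) was not called (log2 difference 1.17, adjusted p = 0.445).

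**Figure D2:**
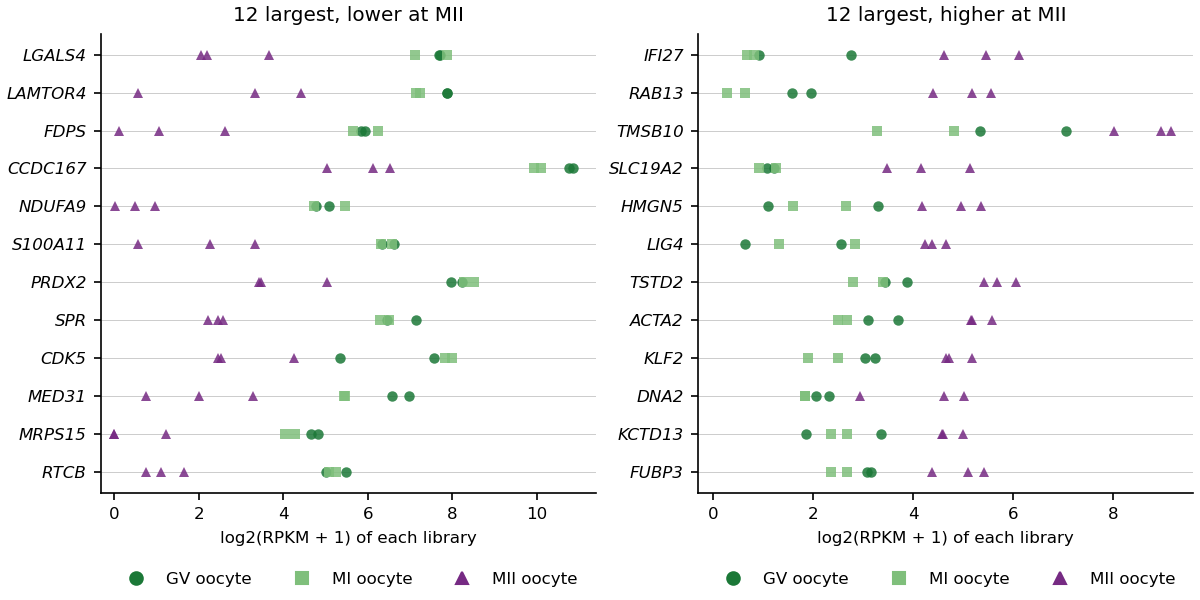
Each row is a gene and each symbol 1 oocyte, with log2(RPKM + 1) on the x axis, for the 12 largest falls (left) and the 12 largest rises (right). MII oocytes (purple triangles) lie entirely to the left of GV (dark circles) and MI (light squares) in the left panel and entirely to the right in the right panel, since non-overlap was part of how these genes were chosen.

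Gene lists describe which functions these changes touched. They were written from general knowledge, but with earlier results of these data known, so their shares are a description and not independent support. In 19 of the 29 lists with at least 10 tested members the share of members that fell was above the 12.6% of all tested entries. Among the 10734 tested entries at 1 RPKM or more in at least 2 oocytes, that share rose with the level in immature oocytes. It was 1.77% at means under 1 RPKM, 14.7% at 1 to 10, 21.9% at 10 to 100 and 25.2% over 100. The lists were not matched for level, and its part in their shares was not tested. In 14 of those 29 lists limma called no member higher: of their 414 tested members, 13 were higher at an unadjusted p under 0.05, against 5.29% of all entries. The genes of mitochondria, the proteasome, tRNA charging and the subcortical maternal complex had the largest shares of falls, while cytosolic ribosomal proteins, the spindle list and the list of mRNAs known to be polyadenylated or newly translated in maturation had the smallest.

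**Figure D3:**
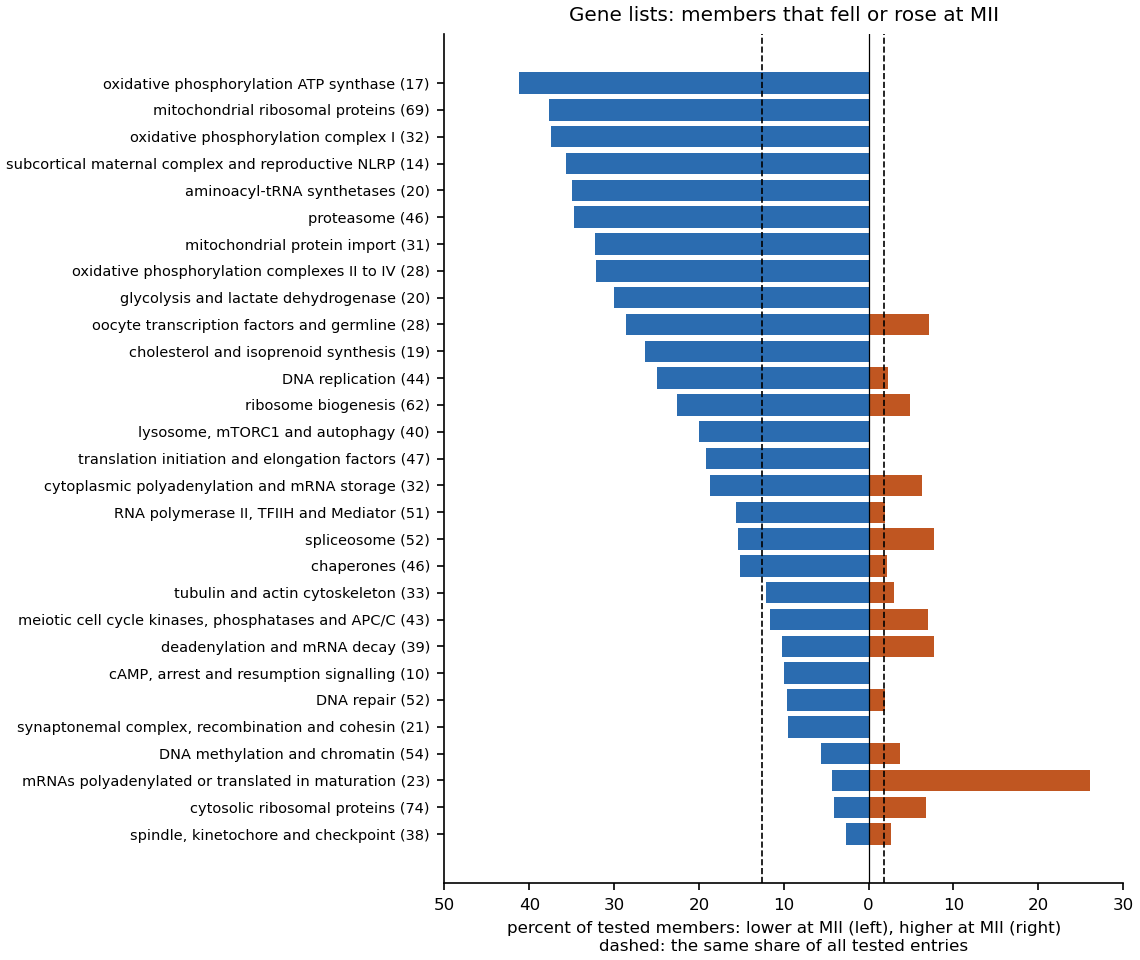
Bars give the percent of tested members of each list that fell (blue, left) or rose (orange, right) at MII, with the number of tested members in parentheses, for the 29 lists with at least 10. The dashed lines mark the share of all 14312 tested entries, 12.6% lower and 1.76% higher.

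Oxidative phosphorylation makes ATP in the inner mitochondrial membrane, where complexes I to IV pass electrons to oxygen and pump protons that drive the ATP synthase. Of its 77 tested genes, 28 fell, 36.4% against 12.6% of all entries, and the median log2 difference over the 77 was -1.13 against -0.18. Complex I had 12 of 32 lower, complexes II to IV 9 of 28, and the ATP synthase 7 of 17. The count of 28 was 12 to 23 without each oocyte library in turn, with the minimum without MII library 2, and 18 with median-of-ratios scaling.

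Within complex I, NDUFA12 had 864 and 692 RPKM at GV, 537 and 440.4 at MI and 157, 59.6 and 192 at MII, a log2 difference of -2.32 (SE 0.43, adjusted p = 0.00152). NDUFA8 had 219.6 and 268 RPKM at GV, 191 and 151 at MI and 59.3, 47.01 and 62.8 at MII, a log2 difference of -1.84 (SE 0.37, adjusted p = 0.00262). Both subunits started far above NDUFA9, fell by less on the log2 scale and did not overlap between groups. SDHA, the catalytic subunit of succinate dehydrogenase (complex II), had 14.2 and 12.4 RPKM at GV, 15.8 and 10.1 at MI and 0.689, 0.433 and 1.34 at MII, a log2 difference of -2.97 (SE 0.52, adjusted p = 0.00103). UQCRC1, a core protein of complex III, had 56.4 and 30.1 RPKM at GV, 38.3 and 39.6 at MI and 2.14, 3.13 and 0.897 at MII, a log2 difference of -3.82 (SE 0.76, adjusted p = 0.00244). COX8A, of cytochrome c oxidase (complex IV), had 19.5 and 16.04 RPKM at GV, 14.4 and 30.6 at MI and 2.50, 1.73 and 3.30 at MII, a log2 difference of -2.56 (SE 0.58, adjusted p = 0.00592). COX6C, the most abundant member of the list to fall, fell from 2178 ± 840.1 to 677 ± 275 RPKM.

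In the ATP synthase, ATP5F1A, the alpha subunit of the catalytic head, had 336 and 413 RPKM at GV, 473 and 404 at MI and 63.5, 65.5 and 71.3 at MII, with a log2 difference of -2.58 (SE 0.41, adjusted p = 5.52e-04). ATP5MC1, which encodes the c subunit of the rotating ring, had 369.6 and 317 RPKM at GV, 208 and 204 at MI and 23.5, 13.8 and 34.6 at MII, a log2 difference of -3.51 (SE 0.55, adjusted p = 4.68e-04). A further entry of the same name fell as well (-3.61, adjusted p = 0.00111), and reads of near-identical copies may be split between them. ATP5PD, of the stalk, had 879.6 and 679.8 RPKM at GV, 447 and 451 at MI and 115, 162 and 116 at MII and a log2 difference of -2.18 (SE 0.43, adjusted p = 0.0023). ATP5IF1, the inhibitor that blocks ATP hydrolysis, fell from 27.05 ± 8.48 to 2.29 ± 2.52 RPKM.

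Mitochondrial ribosomes translate the few proteins encoded in mitochondrial DNA, and 26 of 69 tested genes for their proteins fell (37.7%), with a median log2 difference over all 69 of -1.36. The count was 14 to 20 without each library in turn, the minimum without MII library 2, and 14 under scaling. MRPL14, of the large subunit, had 151 and 210.03 RPKM at GV, 144 and 165 at MI and 8.36, 3.21 and 43.8 at MII, a log2 difference of -3.79 (SE 0.61, adjusted p = 5.97e-04). MRPS11, of the small subunit, had 19.98 and 21.2 RPKM at GV, 17.9 and 12.8 at MI and 0.555, 0.0140 and 1.31 at MII, a log2 difference of -3.60 (SE 0.51, adjusted p = 1.88e-04). Among the others, MRPL22 fell from 521 ± 85.5 to 137 ± 76.3 RPKM, MRPS21 from 259 ± 109 to 25.6 ± 5.71 and MRPL35 from 214 ± 126 to 23.2 ± 4.45, so the falls included abundant as well as scarce members.

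Proteins made in the cytosol enter mitochondria through the translocases of the outer (TOM) and inner (TIM) membranes. Of 31 tested import genes, 10 fell, 32.3% against 12.6% of all entries. The count was 6 to 8 without each library in turn, the minimum without MII library 2, and 7 under scaling. TIMM10, a chaperone of the intermembrane space, had 79.6 and 128 RPKM at GV, 59.6 and 56.1 at MI and 5.60, 6.07 and 3.87 at MII, a log2 difference of -3.67 (SE 0.66, adjusted p = 0.00121). TIMM8A, of the same family, had 30.02 and 30.6 RPKM at GV, 13.1 and 16.9 at MI and 1.30, 1.31 and 1.97 at MII, a log2 difference of -3.15 (SE 0.58, adjusted p = 0.00142). TOMM34, a cytosolic co-chaperone of import, had 28.4 and 23.2 RPKM at GV, 20.9 and 20.2 at MI and 4.43, 2.08 and 2.36 at MII, a log2 difference of -2.65 (SE 0.39, adjusted p = 2.35e-04).

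Glycolysis and the entry of pyruvate into mitochondria gave 6 of 20 lower, 30% against 12.6% of all entries. The count was 2 to 4 without each library in turn and 2 under scaling. PDHA1, the E1 alpha subunit of pyruvate dehydrogenase, had 224 and 208 RPKM at GV, 304 and 246 at MI and 19.1, 15.1 and 15.8 at MII, a log2 difference of -3.79 (SE 0.52, adjusted p = 1.37e-04). The platelet-type phosphofructokinase PFKP had 37.6 and 26.8 RPKM at GV, 31.04 and 39.2 at MI and 3.16, 2.99 and 4.62 at MII, a log2 difference of -2.92 (SE 0.47, adjusted p = 5.96e-04). TPI1, triosephosphate isomerase, had 32.4 and 36.1 RPKM at GV, 21.9 and 16.7 at MI and 4.37, 2.58 and 7.02 at MII, a log2 difference of -2.31 (SE 0.60, adjusted p = 0.014), and its adjusted p was 0.0875 without MII library 2 and 0.0763 under scaling.

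In the synthesis of cholesterol and isoprenoids, 5 of 19 tested genes fell, 26.3% against 12.6% of all entries. The count was 2 to 4 without each library in turn and 2 under scaling. Besides FDPS, NSDHL, which removes methyl groups from sterol intermediates, had 50.4 and 26.96 RPKM at GV, 57.8 and 42.4 at MI and 3.17, 0.742 and 1.63 at MII, a log2 difference of -4.03 (SE 0.62, adjusted p = 4.18e-04). SCAP, the sterol-sensing escort of the SREBP transcription factors, was low throughout, with 4.86 and 2.53 RPKM at GV, 2.57 and 2.12 at MI and 0.697, 0 and 0.218 at MII, and its adjusted p of 0.0296 became 0.134 without MII library 2. Its call also ended without GV library 1, MI library 1, MI library 2 and MII library 3, and under scaling.

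Of 40 tested genes of the lysosome, mTORC1 and autophagy, 8 fell, 20% against 12.6% of all entries. The count was 6 to 8 without each library in turn and 6 under scaling. ATP6V1E1, of the proton pump that acidifies lysosomes, had 261 and 281 RPKM at GV, 272 and 223 at MI and 15.2, 8.54 and 30.5 at MII, a log2 difference of -3.94 (SE 0.41, adjusted p = 1.86e-05). ATG7, the E1-like enzyme that activates ubiquitin-like proteins of autophagy, had 336 and 276 RPKM at GV, 155 and 122 at MI and 26.9, 30.2 and 40.99 at MII, a log2 difference of -2.63 (SE 0.46, adjusted p = 9.77e-04). ATG3, the E2-like enzyme that acts after it, had 788 and 809 RPKM at GV, 598 and 579 at MI and 298, 175 and 320.1 at MII, a log2 difference of -1.42 (SE 0.28, adjusted p = 0.00239). The mTOR kinase gene MTOR fell from 12.9 ± 1.24 to 2.43 ± 1.22 RPKM.

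The proteasome degrades proteins tagged with ubiquitin, among them the cyclins and securin whose loss drives meiotic divisions. Of 46 tested genes of the list, 16 fell (34.8%), with a median log2 difference over the 46 of -1.0. The count was 9 to 13 without each library in turn, the minimum being reached when either GV library 1 or MII library 2 was left out, and 10 under scaling. PSMB1, of the core particle, had 482 and 435 RPKM at GV, 347 and 379.7 at MI and 55.2, 32.0 and 101 at MII, a log2 difference of -2.83 (SE 0.51, adjusted p = 0.00127). PSMC6, an ATPase of the base that unfolds substrates, had 53.6 and 72.4 RPKM at GV, 82.96 and 51.7 at MI and 10.6, 8.75 and 12.7 at MII, a log2 difference of -2.49 (SE 0.42, adjusted p = 7.28e-04). A further 4 entries carry its name and none was called. Those tested had log2 differences of -1.21, -1.34 and -0.56 (adjusted p = 0.07, 0.232 and 0.224). PSMD6, a lid subunit, had 60.7 and 51.1 RPKM at GV, 57.1 and 60.3 at MI and 13.2, 0.729 and 6.79 at MII, a log2 difference of -3.33 (SE 0.68, adjusted p = 0.00291). PSMB5, with the chymotrypsin-like active site, fell from 273 ± 60.1 to 66.8 ± 13.8 RPKM, and POMP, the chaperone that assembles the core, from 375 ± 38.7 to 145 ± 71.2.

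Chaperones fold new proteins, and 7 of 46 tested genes fell, a share of 15.2% that lies close to the 12.6% of all entries, while HSP90AB1 rose. DNAJB1, a co-chaperone of HSP70, had 127 and 81.1 RPKM at GV, 78.6 and 103 at MI and 19.6, 10.7 and 24.96 at MII, a log2 difference of -2.39 (SE 0.40, adjusted p = 7.28e-04). HSPA4, an exchange factor of the HSP110 group, had 102 and 133 RPKM at GV, 133 and 125 at MI and 27.5, 28.4 and 20.1 at MII, a log2 difference of -2.24 (SE 0.46, adjusted p = 0.00283). CCT3, of the ring that folds actin and tubulin, had 77.2 and 64.02 RPKM at GV, 67.7 and 92.1 at MI and 13.3, 20.6 and 13.0 at MII, a log2 difference of -2.21 (SE 0.43, adjusted p = 0.00213). HSP90AB1, the constitutive HSP90 isoform, had 268 and 282 RPKM at GV, 245 and 311 at MI and 508, 799.98 and 514 at MII, a log2 difference of 1.10 (SE 0.31, adjusted p = 0.0221). The number lower was 3 to 6 without each library in turn (the minimum without MII library 2) and 3 under scaling, and HSP90AB1 lost its call without GV library 1, GV library 2, MI library 1 and MII library 2.

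Genes for the charging of tRNA fell in 7 of 20 cases, 35% against 12.6% of all entries. The count was 6 to 7 without each library in turn and 5 under scaling. The alanyl-tRNA synthetase AARS1 had 21.3 and 14.8 RPKM at GV, 19.2 and 18.7 at MI and 0.897, 0.468 and 0.854 at MII, a log2 difference of -3.49 (SE 0.42, adjusted p = 6.04e-05). KARS1, for lysine, had 25.6 and 20.3 RPKM at GV, 28.1 and 23.6 at MI and 1.53, 1.49 and 5.02 at MII, a log2 difference of -2.91 (SE 0.53, adjusted p = 0.00142). RARS1, for arginine, had 98.9 and 79.9 RPKM at GV, 139 and 139.6 at MI and 30.5, 22.1 and 9.12 at MII, a log2 difference of -2.53 (SE 0.44, adjusted p = 9.43e-04). Other members such as QARS1, LARS1 and IARS1 were not called, with log2 differences of 0.51, 0.40 and 0.66.

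Translation factors showed 9 of 47 lower, 19.1% against 12.6% of all entries. The count was 6 to 7 without each library in turn and 4 under scaling. EIF2B2, of the factor that recharges eIF2 with GTP, had 16.8 and 17.1 RPKM at GV, 14.8 and 16.6 at MI and 1.52, 1.45 and 0.0690 at MII, a log2 difference of -3.21 (SE 0.62, adjusted p = 0.00204). EIF3D, an eIF3 subunit that can bind the cap, had 17.8 and 23.5 RPKM at GV, 32.8 and 14.7 at MI and 2.37, 1.10 and 1.31 at MII, a log2 difference of -3.13 (SE 0.62, adjusted p = 0.00249). EIF4E2, a cap-binding protein that represses translation, had 42.9 and 39.2 RPKM at GV, 41.1 and 38.98 at MI and 6.15, 2.59 and 7.74 at MII, a log2 difference of -2.77 (SE 0.47, adjusted p = 7.66e-04). The elongation factor gene EEF1A1 fell from 532 ± 21.8 to 203 ± 36.2 RPKM.

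Of 74 tested genes of cytosolic ribosomal proteins, 3 fell (4.05% against 12.6%) and 5 rose (6.76% against 1.76%), and the median log2 difference was 0.48. Without each library in turn 1 to 2 rose and 1 to 2 fell, and under scaling 8 rose and 1 fell. RPL27 had 384 and 295 RPKM at GV, 176 and 184 at MI and 549.5, 623 and 716 at MII, a log2 difference of 1.34 (SE 0.38, adjusted p = 0.0221), and its call ended without 5 of the 7 libraries (GV 2, MI 1, MI 2, MII 2 and MII 3), with an adjusted p up to 0.0805 without MII library 3. RPL30 rose from 695 ± 278 to 1621 ± 249 RPKM and RPL38 from 522 ± 369 to 1505 ± 172, while FAU, a ubiquitin-like fusion with a ribosomal protein, fell from 728 ± 174 to 165 ± 37.5.

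Single entries of this family behaved unevenly across the immature stages and may be near-identical copies. The entry named RPL19 at chr16:49275061-49279836 had 22.4 and 14.4 RPKM at GV, 136 and 159.9 at MI and 4.38, 10.2 and 3.87 at MII, and the entry named RPS18 (IMMRNTR2481) had 23.05 and 21.9 RPKM at GV, 0.266 and 0.164 at MI and 50.3, 67.2 and 56.96 at MII. Among the oocytes RPL19 was thus highest at MI, and RPS18 nearly at 0 at MI. In pronuclear embryos their means were 90.2 ± 39.9 and 0.543 ± 0.481 RPKM. For RPL19 a further 2 entries were not called, at log2 differences of 0.49 and 1.07, and the other RPS18 entry was not called either (1.18, adjusted p = 0.325). In the fit of the 7 oocytes with GV and MI as 1 group the call of IMMRNTR2481 ended (adjusted p = 0.0806). Both genes are reported as uncertain.

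Ribosome biogenesis, the processing and assembly of ribosomes in the nucleolus, had 14 of 62 tested genes lower and 3 higher. These shares were 22.6% and 4.84%, against 12.6% and 1.76% of all entries. The lower count was 10 to 14 without each library in turn and 7 under scaling, and the higher count 0 to 2 and 2. TSR2, an escort of a small-subunit protein, had 18.5 and 12.2 RPKM at GV, 22.8 and 19.02 at MI and 1.81, 0.815 and 0.154 at MII, a log2 difference of -3.37 (SE 0.34, adjusted p = 1.23e-05). WDR74, of early large-subunit assembly, had 15.2 and 13.2 RPKM at GV, 9.69 and 12.7 at MI and 0, 1.81 and 1.33 at MII, a log2 difference of -2.86 (SE 0.46, adjusted p = 5.89e-04). MRTO4, a placeholder in the large-subunit stalk, had 13.1 and 10.7 RPKM at GV, 17.1 and 23.6 at MI and 1.97, 2.01 and 2.00 at MII, a log2 difference of -2.46 (SE 0.41, adjusted p = 7.41e-04). The kinase gene RIOK1 rose from 53.1 ± 12.8 to 124 ± 30.3 RPKM and LTV1, a small-subunit assembly factor, from 143 ± 18.8 to 311 ± 34.99. No member of this list was called higher without MI library 1, without MII library 1 or without MII library 2.

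Genes of the transcription machinery fell in 8 of 51 cases, a share of 15.7% that lies close to the 12.6% of all entries, and 1 rose. POLR2D, of the RNA polymerase II stalk, had 79.4 and 83.8 RPKM at GV, 66.4 and 81.7 at MI and 11.5, 4.88 and 15.4 at MII, a log2 difference of -2.88 (SE 0.63, adjusted p = 0.00458). POLR2I had 78.4 and 82.7 RPKM at GV, 81.9 and 66.4 at MI and 11.3, 7.77 and 8.95 at MII, with an adjusted p of 0.0117 and 0.0572 without MII library 2. CCNH, the cyclin H of the CDK-activating kinase, had 348 and 341 RPKM at GV, 315 and 299 at MI and 123, 31.2 and 169 at MII, with an adjusted p of 0.011 and 0.0987 without MII library 2, or 0.0519 under scaling. The count of 8 was 1 to 5 without each library in turn (1 without MII library 2) and 2 under scaling.

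The spliceosome list divided, with 8 of 52 lower (15.4%) and 4 higher (7.69%). Its median was -0.06, and 0.13 with median-of-ratios scaling, where 5 fell and 3 rose. SNRPD2, a core Sm protein gene, had 468 and 399.6 RPKM at GV, 204 and 187 at MI and 49.8, 26.6 and 43.4 at MII, a log2 difference of -2.88 (SE 0.51, adjusted p = 0.00111). SNRPA1, of the U2 particle, had 54.98 and 53.8 RPKM at GV, 43.6 and 59.5 at MI and 6.05, 5.53 and 11.2 at MII, a log2 difference of -2.70 (SE 0.44, adjusted p = 5.94e-04). PUF60, which helps recognise the polypyrimidine tract, had 20.6 and 18.4 RPKM at GV, 9.63 and 14.5 at MI and 1.51, 0.815 and 0.0360 at MII, a log2 difference of -3.27 (SE 0.63, adjusted p = 0.002). In the other direction SNRPF, a further Sm protein gene, rose from 294 ± 122 to 927 ± 68.7 RPKM. Without each library in turn 3 to 6 fell, the minimum without MII library 2, and 1 rose.

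DNA replication is not used in meiotic maturation but resumes after fertilisation. Of 44 tested replication genes 11 fell (25%) and 1, the sliding clamp gene PCNA, rose. PRIM1, the primase subunit, had 72.6 and 89.6 RPKM at GV, 108 and 101 at MI and 11.5, 6.29 and 3.5 at MII, a log2 difference of -3.64 (SE 0.76, adjusted p = 0.00327). The helicase subunit gene MCM5 had 5.95 and 9.59 RPKM at GV, 14.4 and 18.9 at MI and 0.832, 0 and 0.955 at MII, a log2 difference of -3.0 (SE 0.51, adjusted p = 8.34e-04). MCM3, of the same helicase, had 55.5 and 52.5 RPKM at GV, 38.8 and 48.9 at MI and 17.5, 9.87 and 9.86 at MII, a log2 difference of -1.93 (SE 0.37, adjusted p = 0.00183). PCNA was among the most abundant genes and had 1909 and 2812 RPKM at GV, 2922 and 3563 at MI and 5241, 5869.8 and 4729 at MII, a log2 difference of 0.94 (SE 0.30, adjusted p = 0.0411). The lower count was 7 to 8 without each library in turn and 7 under scaling, and PCNA kept its call only without GV library 2.

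DNA repair genes fell in 5 of 52 cases (9.62%), under the share of all entries. ERCC1, of the nuclease that cuts beside bulky lesions, had 14.6 and 11.9 RPKM at GV, 15.2 and 7.73 at MI and 0, 0.0960 and 1.45 at MII, a log2 difference of -3.22 (SE 0.73, adjusted p = 0.00604). The genes of the Ku proteins, which bind broken ends before LIG4 joins them, both fell: XRCC6 had 99.5 and 76.4 RPKM at GV, 132 and 129 at MI and 15.6, 29.2 and 15.3 at MII, a log2 difference of -2.42 (SE 0.38, adjusted p = 4.27e-04), and XRCC5 had 30.2 and 28.2 RPKM at GV, 48.5 and 39.7 at MI and 6.77, 9.48 and 4.26 at MII, a log2 difference of -2.29 (SE 0.48, adjusted p = 0.00369). The other entry named XRCC6 was low and not called (log2 difference -0.63, adjusted p = 0.584). LIG4 was the 1 member that rose.

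In the cytoskeleton list, 4 of 33 tested genes fell (12.1%, close to the 12.6% of all entries) and 1 rose. TUBA1C, an alpha tubulin, was among the most abundant transcripts, with 2644 and 2145 RPKM at GV, 1838 and 2161 at MI and 6557, 6557 and 5432 at MII, a log2 difference of 1.5 (SE 0.36, adjusted p = 0.00881). Another alpha tubulin, TUBA4A, went the opposite way, with 20.6 and 53.97 RPKM at GV, 17.95 and 27.4 at MI and 2.83, 0.228 and 3.27 at MII, a log2 difference of -3.38 (SE 0.60, adjusted p = 0.00115). CFL2, an actin-severing cofilin, had 16.4 and 21.4 RPKM at GV, 19.3 and 21.4 at MI and 3.05, 1.21 and 6.0 at MII, an adjusted p of 0.022, and its call held without MII library 3 only. Without each of the 7 libraries, TUBA1C was the 1 member called higher, and 1 to 2 members fell.

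The subcortical maternal complex and the reproductive NLRP genes had 5 of 14 tested members lower (35.7%), with a median log2 difference of -0.92. This complex lies under the oocyte membrane and is needed for the first embryonic divisions. NLRP5, its MATER protein, had 291 and 242 RPKM at GV, 323 and 270.2 at MI and 29.0, 28.98 and 48.0 at MII, a log2 difference of -2.99 (SE 0.51, adjusted p = 8.34e-04). PADI6, of the cytoplasmic lattices, had 516 and 355 RPKM at GV, 360.3 and 326 at MI and 52.3, 55.3 and 84.3 at MII, a log2 difference of -2.60 (SE 0.37, adjusted p = 1.83e-04). NLRP7, a maternal imprinting factor, had 43.4 and 38.6 RPKM at GV, 39.2 and 20.8 at MI and 5.81, 5.78 and 8.79 at MII, a log2 difference of -2.20 (SE 0.41, adjusted p = 0.00168). NLRP7 is not confined to the oocyte, and its mean at the blastocyst was 205 ± 59.2 RPKM. TLE6 fell from 56.1 ± 12.97 to 14.5 ± 6.87 RPKM and NLRP2 from 227 ± 10.2 to 69.7 ± 23.8. The count was 4 to 5 without each library in turn and 4 under scaling.

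Oocyte transcription factors and germline genes fell in 8 of 28 cases and rose in 2, shares of 28.6% and 7.14% against 12.6% and 1.76% of all entries. FBXW12, an F-box gene, had 513 and 518 RPKM at GV, 571 and 336 at MI and 38.99, 40.8 and 81.96 at MII, a log2 difference of -3.20 (SE 0.41, adjusted p = 8.59e-05). NPM2, the nucleoplasmin that remodels sperm chromatin, had 276 and 263 RPKM at GV, 192 and 169 at MI and 63.8, 50.5 and 47.3 at MII, a log2 difference of -2.02 (SE 0.40, adjusted p = 0.00217). TBPL2, the oocyte's TBP-like factor, had 90.7 and 87.2 RPKM at GV, 51.99 and 39.5 at MI and 15.8, 12.8 and 21.3 at MII, a log2 difference of -1.90 (SE 0.39, adjusted p = 0.0031), and its call ended with a pseudocount of 0.1 (adjusted p = 0.0547). FIGLA, which drives the zona genes, fell from 61.6 ± 25.6 to 9.88 ± 8.26 RPKM, and LHX8 from 29.6 ± 5.18 to 8.27 ± 4.15. H1FOO, the oocyte linker histone, rose from 245 ± 92.9 to 634 ± 214 RPKM with an adjusted p of 0.0384. The lower count was 5 to 8 without each library in turn (5 without MII library 2) and 5 under scaling, and the higher count 0 to 1 and 2.

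All 6 tested members of the zona pellucida and secreted factor list were lower at MII, as were 62.1% of all tested entries. Of the 6, 2 passed the test, 33.3% against 12.6% of all entries. GDF9 had 105 and 163 RPKM at GV, 396 and 227 at MI and 48.5, 56.8 and 89.6 at MII, a log2 difference of -1.64 (SE 0.40, adjusted p = 0.00915). BMP15, its partner in signalling to cumulus cells, had 73.95 and 76.9 RPKM at GV, 338 and 154 at MI and 45.1, 31.4 and 51.9 at MII, a log2 difference of -1.62 (SE 0.45, adjusted p = 0.0194). The count was 0 to 3 without each library in turn (0 without MII library 1), and under median-of-ratios scaling limma called none of the 6, of which 5 were lower at an unadjusted p under 0.05 without that scaling.

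In the chromatin list 3 of 54 tested genes fell and 2 rose, shares of 5.56% and 3.70% against 12.6% and 1.76% of all entries. DNMT1, the maintenance DNA methyltransferase, had 410.1 and 328 RPKM at GV, 157 and 183 at MI and 1078, 1188 and 905 at MII, a log2 difference of 2.07 (SE 0.35, adjusted p = 8.34e-04). Every MII oocyte was above every immature one, and the adjusted p stayed under 0.05 without each library in turn. The entry named KAT7 (IMMRNTR3509), a histone acetyltransferase, had 18.1 and 14.1 RPKM at GV, 24.5 and 18.1 at MI and 3.76, 2.10 and 3.02 at MII, with an adjusted p of 0.00844 and 0.0504 without MII library 2. EZH2, of the Polycomb complex that methylates histone H3, had 13.7 and 10.5 RPKM at GV, 8.32 and 10.1 at MI and 3.47, 1.77 and 2.69 at MII, with an adjusted p of 0.0128 and 0.0775 without MII library 2, and the call also ended without GV library 1 and under scaling. The chromatin list had 0 to 2 lower without each library in turn (0 without MII library 2) and 1 to 3 higher.

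The kinases, phosphatases and anaphase-promoting complex that drive meiosis gave no one direction: of 43 tested, 5 fell (11.6%) and 3 rose (6.98%), and the median was -0.12, or 0.01 under scaling, where 2 fell and 4 rose. Without each library in turn 2 to 4 fell and 0 to 1 rose. Entry into metaphase depends on CDK1 bound to B-type cyclins. CDK1 had 352 and 473 RPKM at GV, 456 and 480.1 at MI and 113, 28.7 and 119.6 at MII, a log2 difference of -2.56 (SE 0.55, adjusted p = 0.00417). CCNB2 had 219.6 and 410.00 RPKM at GV, 521 and 544 at MI and 133, 90.0 and 157 at MII, a log2 difference of -1.69 (SE 0.51, adjusted p = 0.0319), and it kept its call only without GV library 1, with an adjusted p up to 0.153 without MII library 2. CCNB1, the other B-type cyclin, was not called, at 249 and 269.5 RPKM at GV, 305 and 337 at MI and 468, 685 and 468 at MII, a log2 difference of 0.88 (SE 0.37, adjusted p = 0.125). Its MII oocytes were all above the immature ones, and it was called under scaling and in the fits of the 7 oocytes alone.

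Release from metaphase depends on the anaphase-promoting complex, which FBXO43 (EMI2) holds inactive at MII and CDC20 activates. FBXO43 had 7.76 and 9.60 RPKM at GV, 14.4 and 6.75 at MI and 34.95, 31.4 and 19.3 at MII, a log2 difference of 1.48 (SE 0.44, adjusted p = 0.0286), with an adjusted p up to 0.12 without MI library 2 (the call also ended without GV library 1, GV library 2, MII library 1 and MII library 2). CDC20 had 69.3 and 52.5 RPKM at GV, 42.3 and 51.2 at MI and 171, 112 and 105 at MII, a log2 difference of 1.24 (SE 0.51, adjusted p = 0.113), and so was not called although the groups did not overlap, but it was called in both fits of the 7 oocytes alone and without Mo library 2. ANAPC13, a small subunit of the complex, had 45.4 and 49.5 RPKM at GV, 46.6 and 42.99 at MI and 5.79, 10.7 and 9.21 at MII, a log2 difference of -2.34 (SE 0.38, adjusted p = 6.03e-04). MOS, the kinase upstream of MAP kinase in the MII arrest, was low, at 0.174 and 0.0560 RPKM at GV, 0 and 0 at MI and 0.268, 1.16 and 0.409 at MII, and not called.

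In the spindle list 1 of 38 tested genes fell, HAUS1, and 1 rose, TPX2, 2.63% each against 12.6% and 1.76% of all entries. The median was 0.40, and 8 were higher at an unadjusted p under 0.05, as were 5.29% of all entries. The count lower was 0 without MII library 2 and 0 under scaling, so the call of HAUS1 ended in both. TPX2, the activator of Aurora A on the spindle, had 65.8 and 76.4 RPKM at GV, 84.5 and 90.9 at MI and 146, 179 and 167 at MII, a log2 difference of 1.04 (SE 0.31, adjusted p = 0.0306). Its groups did not overlap, yet its call ended without each of the 7 libraries, with an adjusted p up to 0.117 without MII library 2. BUB1B, of the spindle checkpoint, was not called, at 33.5 and 42.3 RPKM at GV, 85.8 and 81.7 at MI and 51.2, 90.8 and 59.95 at MII. PLK1, the polo-like kinase, had 0.368 and 1.48 RPKM at GV, 5.64 and 10.3 at MI and 0.766, 0.281 and 0.892 at MII, high at MI and low at both GV and MII, and was not called (adjusted p = 0.256, or 0.0304 in the fit of the 7 oocytes alone by stage).

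For the prophase arrest, GPR3, the receptor that keeps cAMP high, was listed at 0 in 4 of 7 oocytes, reached 0.374 RPKM at most and was not tested. PDE3A, the phosphodiesterase that breaks cAMP down, had 1.34 and 1.18 RPKM at GV, 0.809 and 2.06 at MI and 2.92, 4.26 and 0.792 at MII and was not called (adjusted p = 0.424). In the list of cAMP and arrest genes ADCY3, the adenylyl cyclase of the oocyte, was the 1 of 10 tested that fell, 10% against 12.6% of all entries. It had 42.7 and 35.03 RPKM at GV, 19.2 and 17.7 at MI and 5.01, 4.08 and 8.57 at MII, a log2 difference of -2.06 (SE 0.40, adjusted p = 0.00202). In the synaptonemal and cohesin list 2 of 21 fell (9.52%, under the share of all entries). SYCE1 had 9.61 and 11.7 RPKM at GV, 14.1 and 19.1 at MI and 0, 0 and 0.284 at MII, a log2 difference of -3.71 (SE 0.51, adjusted p = 1.48e-04). STAG3 fell from 5.17 ± 1.46 to 1.07 ± 0.152 RPKM. The count was 1 to 3 without each library in turn (1 without GV library 1, MI library 1 or MII library 2) and 1 under scaling.

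Stored mRNAs are held by repressive particles until maturation. In the storage and polyadenylation list 6 of 32 tested genes fell (18.8%) and 2 rose (6.25%). The lower count was 3 to 6 without each library in turn (3 without MII library 2) and 3 under scaling, and the higher count 0 to 2 and 4. ZAR1, needed for the oocyte's store of mRNA, had 166 and 151 RPKM at GV, 73.7 and 73.6 at MI and 23.7, 11.9 and 22.7 at MII, a log2 difference of -2.48 (SE 0.50, adjusted p = 0.00282). PATL2, a translational repressor of the immature oocyte, had 85.2 and 65.5 RPKM at GV, 70.9 and 64.98 at MI and 16.2, 10.6 and 9.95 at MII, a log2 difference of -2.48 (SE 0.44, adjusted p = 0.00105). PABPC1L, the embryonic poly(A)-binding protein, had 10.6 and 9.54 RPKM at GV, 5.56 and 11.4 at MI and 1.97, 0.722 and 0.640 at MII, a log2 difference of -2.30 (SE 0.44, adjusted p = 0.00183). YBX2 (MSY2), the germ-cell Y-box protein that masks mRNA, had 41.1 and 43.4 RPKM at GV, 12.3 and 15.7 at MI and 5.15, 2.25 and 7.62 at MII, a log2 difference of -2.19 (SE 0.52, adjusted p = 0.00837), with an adjusted p of 0.0685 without MII library 2 and 0.0584 under scaling.

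LSM14B, a further repressor in storage particles, had 3.65 and 1.42 RPKM at GV, 1.5 and 0.935 at MI and 2.48, 2.43 and 1.22 at MII and was not called (adjusted p = 0.895). TENT2, the cytoplasmic poly(A) polymerase known as GLD2, had 44.3 and 43.8 RPKM at GV, 69.3 and 63.2 at MI and 85.1, 108 and 82.1 at MII and was not called (adjusted p = 0.244), with all MII oocytes above the immature ones, but was called in both fits of the 7 oocytes alone. TENT4A, a related polymerase, rose from 75.1 ± 9.57 to 236 ± 61.04 RPKM, and PABPN1, a nuclear poly(A)-binding protein gene, from 26.5 ± 9.67 to 79.4 ± 27.99. No member of the storage and polyadenylation list was called higher without MI library 1 or without MII library 2. CPEB1 and WEE2 of the panel were not matched to an entry.

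Removal of mRNA begins with deadenylation by the CCR4-NOT complex, followed by decapping. In the decay list 4 of 39 tested genes fell (10.3%) and 3 rose (7.69%), and the median was -0.05, or 0.02 under scaling, where 3 rose and limma called none lower (7 were lower at an unadjusted p under 0.05 without scaling). Without each library in turn 1 to 4 fell (1 without MII library 2) and 1 to 2 rose. DCP1A, a decapping activator known to be translated in maturation, had 6.49 and 4.60 RPKM at GV, 6.25 and 4.61 at MI and 22.5, 20.1 and 14.5 at MII, a log2 difference of 1.62 (SE 0.38, adjusted p = 0.00795), and kept its call without each library. DCP2, the decapping enzyme, had 31.5 and 37.9 RPKM at GV, 27.8 and 36.5 at MI and 74.8, 66.6 and 63.3 at MII, a log2 difference of 1.02 (SE 0.47, adjusted p = 0.166), and was not called although its groups did not overlap, but it was called in the same 3 fits as CDC20. CNOT6L, a deadenylase of maternal mRNA clearance, had 24.8 and 19.3 RPKM at GV, 19.8 and 18.1 at MI and 48.8, 45.2 and 45.7 at MII, a log2 difference of 1.15 (SE 0.38, adjusted p = 0.0457), and its call ended without each of the 7 libraries (adjusted p up to 0.132 without GV library 2).

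The catalytic partner CNOT7 was not called, at 62.04 and 75.4 RPKM at GV, 84.8 and 93.6 at MI and 174, 229 and 128 at MII, a log2 difference of 1.13 (SE 0.61, adjusted p = 0.247), but it was called in the fits that called CDC20. BTG4, the adaptor that brings CCR4-NOT to maternal mRNA, was among the most abundant genes in every oocyte, at 3079.8 and 3822 RPKM at GV, 3214 and 1958 at MI and 3436, 3773 and 4379 at MII. Its values overlapped between groups, and it was not called (adjusted p = 0.693). LSM3 and LSM6, of the ring that binds deadenylated ends and also of a splicing particle, fell: LSM3 had 1413 and 1369 RPKM at GV, 605 and 704 at MI and 346, 189 and 381 at MII, a log2 difference of -1.70 (SE 0.36, adjusted p = 0.00365), and LSM6 495 and 396 RPKM at GV, 270.5 and 313 at MI and 164, 70.2 and 185 at MII, a log2 difference of -1.47 (SE 0.35, adjusted p = 0.00878). Under scaling their adjusted p was 0.0543 and 0.105, and that of LSM6 was 0.0817 without MII library 2.

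The list of mRNAs known from mouse or frog oocytes to be polyadenylated or newly translated in maturation was the one with the largest share of rises. Of 23 tested, 6 rose (26.1% against 1.76% of all entries) and 1, CCNB2, fell, and the median log2 difference was 0.57 against -0.18. The 6 were DCP1A, FBXO43, MAPK8, CNOT6L, AURKA and TPX2. AURKA, the Aurora A kinase of the meiotic spindle, had 656 and 718 RPKM at GV, 1073 and 997 at MI and 1892, 1775 and 1812 at MII, a log2 difference of 1.11 (SE 0.36, adjusted p = 0.0429). MAPK8, a JNK kinase gene, was low, at 0.0660 and 0.317 RPKM at GV, 1.33 and 0.846 at MI and 2.75, 3.63 and 3.41 at MII, a log2 difference of 1.44 (SE 0.44, adjusted p = 0.0331). Under scaling 7 rose. Without each library in turn only 1 to 2 remained called higher, so the count of 6 rests on all 7 oocytes together.

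**Figure D4:**
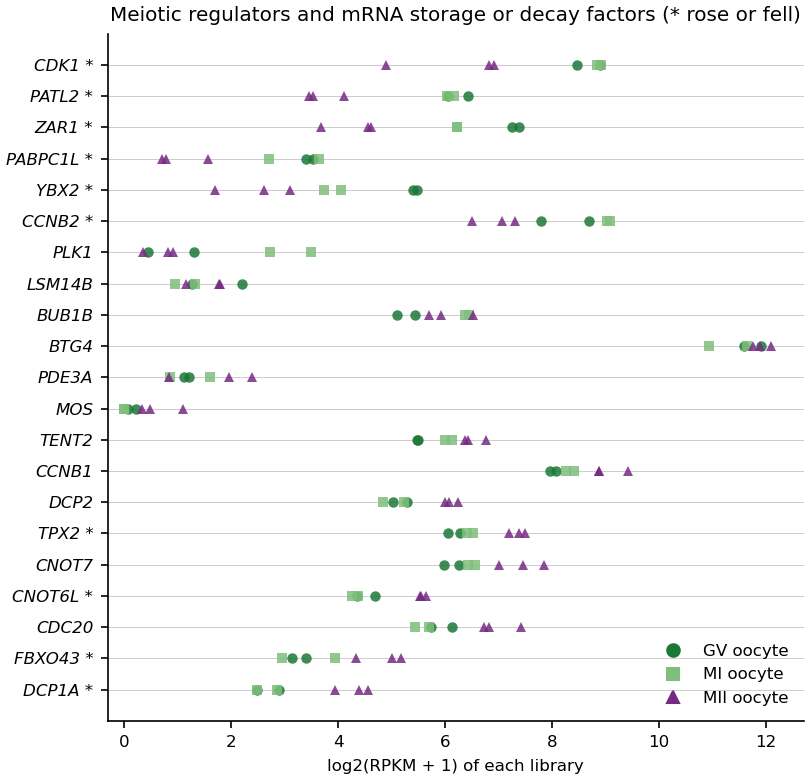
Each row is 1 of 21 tested genes that regulate meiosis or store and degrade mRNA, and each symbol 1 oocyte, with log2(RPKM + 1) on the x axis and an asterisk on the 10 that rose or fell. CDK1, PATL2, ZAR1, PABPC1L, YBX2 and CCNB2 have MII oocytes (triangles) lowest, TPX2, CNOT6L, FBXO43 and DCP1A have them highest, and BTG4 and BUB1B mix.

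Markers of other cells were checked because cumulus cells adhere to oocytes. Of 30 matched cumulus and granulosa markers 8 were listed at 0 in all 7 oocytes, among them FOXL2, AMH and AMHR2, and 20 were under 1 RPKM in all 7. Their summed level was 118 to 182 RPKM at GV, 149 to 165 at MI and 198 to 241 at MII, so it was highest at MII, where SERPINE2 (107.7 to 173.5 RPKM) and TNFAIP6 (21.1 to 90.4) gave most of it. Of 8 tested, FST and GREM1 (IMMRNTR2394) rose, with FST at 1.73 and 0.492 at GV, 1.89 and 0.571 at MI and 3.89, 8.89 and 1.70 at MII in RPKM. The FST values overlapped between groups. GREM1 had 7.05 and 1.54 at GV, 2.01 and 0.654 at MI and 9.64, 8.42 and 18.9 at MII, and the 2 markers together were 0 to 2 calls without each library in turn. VIM had 7.55 and 2.35 at GV, 2.97 and 2.67 at MI and 13.2, 11.8 and 11.7 at MII, and SERPINE2 had 64.1 to 102 in the immature oocytes. Neither was called (adjusted p = 0.105 and 0.382). Of the 8, 6 were higher at MII and 2 lower in any degree. GREM1, VIM and SERPINE2 were the 3 with no overlap on the higher side, against 10% of all tested entries. Of 17 matched blood markers 12 were listed at 0 in all 7 oocytes and 1, CSF1R, reached 1 RPKM, at 6.50 and 4.98 at GV, 5.59 and 2.27 at MI and 0.537, 0.434 and 0.289 at MII. It fell, and the summed blood level was 5.10 to 6.50 at GV, 2.29 to 5.68 at MI and 0.434 to 0.65 at MII. The part of other cells in the results was not tested.

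A further 16 entries were called but not counted as risen or fallen, because MII did not differ in the same direction from GV and from MI. SYCP3, of the synaptonemal complex, had 0.0480 and 0 RPKM at GV, 32.5 and 32.2 at MI and 0.792, 0 and 0 at MII. Among the oocytes it was thus high at MI alone. In embryos SYCP3 was present, with a mean of 65.4 ± 22.9 RPKM in pronuclear embryos and 121 ± 6.56 in morulae. An entry named RPS29 (chr4:149941515-149941708) had 1.63 and 2.34 RPKM at GV, 41.1 and 38.5 at MI and 1.51, 3.32 and 2.87 at MII, and ZNF138, a zinc finger gene, had 0 and 0 RPKM at GV, 7.67 and 5.48 at MI and 0.0320, 0 and 0 at MII. Their means in pronuclear embryos were 67.5 ± 26.5 and 8.52 ± 2.40 RPKM. The reverse held for STC1, the secreted hormone stanniocalcin, with 25.9 and 11.9 RPKM at GV, 0 and 0 at MI and 16.3, 4.90 and 8.76 at MII, where MI was at 0. Its mean in pronuclear embryos was 0.00967 ± 0.0167 RPKM. CARD18, a caspase inhibitor gene, had 7.81 and 2.74 RPKM at GV, 0 and 0 at MI and 0, 0 and 0 at MII, and FAM3D 1.74 and 1.06 RPKM at GV, 0 and 0 at MI and 0, 0 and 0 at MII. For these genes the mean of GV and MI describes neither stage. MI minus GV as a comparison called 84 of 14312 entries (0.587%), and 19 of the 1807 that fell and 12 of the 252 that rose were among them.

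The genomic span and the chromosome, which did not enter the choice, were compared with those of the 10734 tested entries at 1 RPKM or more in at least 2 oocytes. The genomic span had a median of 16710 bp for entries that fell, 17322.5 bp for those that rose and 25048 bp for all of them. In 4 equal groups by span the share that fell was 20.0%, 21.2%, 15.6% and 10.02% from the shortest to the longest. The level in immature oocytes is part of the comparison that chose the entries and is given as a description only. By that level the share was 1.77% under 1 RPKM, 14.7% at 1 to 10, 21.9% at 10 to 100 and 25.2% over 100, and the log2(RPKM + 1) scale itself limits how far a low value can fall. By chromosome the share ranged from 11.4% on chromosome 5 to 23.9% on chromosome 16. These shares describe the entries and were not tested.

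The same entries were followed into the embryos, which were made by sperm injection and grown in culture and so also differ in source. Entries that fell had a median log2 difference from the immature mean of -1.92 at MII, -1.09 in pronuclear embryos (PN), -1.33 at 2 cells, -1.5 at 4 cells and at 8 cells, -1.84 at the morula and -1.30 at the blastocyst. Their median level was 12.3 RPKM in immature oocytes, 1.85 at MII and 4.94 at PN, and 1632 of 1807 were still under the immature mean at PN. Entries that rose had medians of 1.48 at MII, 0.35 at PN, 0.31 at 2 cells, 0.07 at 4 cells, -0.45 at 8 cells, -1.06 at the morula and -0.67 at the blastocyst. Over all tested entries the medians were -0.18 at MII, -0.12 at PN and -0.32 at 2 cells. Entries chosen for an extreme MII value tend to lie nearer the centre at any other stage, so these medians are a description with no test.

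Named genes differed in their PN level. LGALS4 was 6.17 ± 4.87 RPKM at MII and 69.9 ± 40.4 at PN (SD, n = 3 each), against 196 ± 40.3 in immature oocytes (n = 4). CDK5 was 9.13 ± 7.79 at MII and 128 ± 97.1 at PN. FDPS stayed low, at 2.11 ± 2.68 and 3.66 ± 2.83, as did PADI6, at 63.97 ± 17.7 and 57.1 ± 16.7. Among genes that rose, ACTA2 was 38.8 ± 6.87 at MII and 0.0187 ± 0.0323 at PN, IFI27 44.6 ± 22.3 and 2.18 ± 0.968, and DCP1A 19 ± 4.12 and 23.7 ± 3.23. The high level at MII was thus followed by a low one for ACTA2 and IFI27 and by a similar one for DCP1A.

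**Figure D5:**
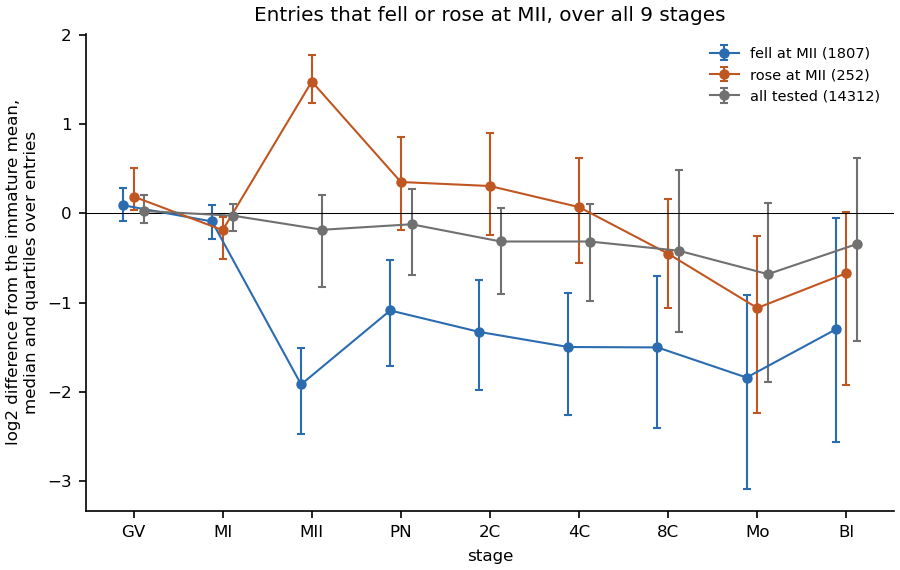
The x axis gives the 9 stages (GV, MI and MII oocytes, then pronuclear, 2-cell, 4-cell, 8-cell, morula and blastocyst embryos) and the y axis the log2 difference from the immature mean. Points are medians and bars quartiles over the 1807 entries that fell, the 252 that rose and all 14312 tested: the first go from -1.92 at MII to -1.09 at PN, and the second from 1.48 to 0.35.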

How the data were processed

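RNA of 7 single oocytes was measured, beside 15 single embryos that enter the fit. Per the labels' protocols, whole cell lysates were amplified with the SMARTer Ultra Low Input chemistry, and libraries followed the TruSeq DNA protocol. What the authors deposited is a single RPKM table. The genome build is Mmul_8.0.1 per the submitters' processing notes, and the aligner, counting program and annotation are not given in the sources used here. Depth was estimated from whole multiples of 1 read in entries spanning under 200 bp (441 of 477 values whole within 0.05), for precision only.

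Entries that reached 1 RPKM in 2 or more of the 22 libraries were tested on log2(RPKM + 1) with limma 3.58.1 in R 4.3.3 (trend and robust), with 1 mean per stage over all 22 libraries and 13 residual degrees of freedom. The contrast was MII minus the mean of the GV and MI means, and p-values were adjusted by Benjamini-Hochberg over all 14312 entries. Errors of log2 differences are limma's standard errors (SE). An exact permutation test of 4 oocytes against 3 cannot go below p = 0.0571, so none was run. Samples were grouped by their labelled stage. Same-numbered oocytes showed little correlation in their deviations, which cannot show whether they share a donor. The script was tested on simulated data.

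Gene symbols came from a name table or the file, with former names matched by hand: 1181 of 1240 listed genes matched and 1082 were tested. Named genes are the 12 largest changes in each direction (Ensembl entries with a symbol, no overlap, mean of at least 10 RPKM in the higher group), the 3 smallest adjusted p-values in each list with at least 3 changed genes, and a panel of 24 regulators; further list members were chosen after their values were seen. The members and lists were chosen with earlier results of these data known. Other pseudocounts, filters, scalings, sample sets and a replicate block were tried.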

Additional observations from a re-analysis of the deposited data

Results flagged for a closer look

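Among 112 entries examined, 5 had 1 immature oocyte apart from the other 3 by Dixon's criterion, which chance meets in about 1 of 20 groups. CDK5 was low in GV library 1 (39.6 RPKM), as was CDK1 (352 RPKM). NLRP7 was low in MI library 2 (20.8 RPKM), IFI27 was high in GV library 1 (5.69 RPKM), and GPR3 had its 1 immature value above 0 in MI library 2 (0.374 RPKM). In all of these but GPR3, which was not tested, the MII oocytes lay beyond the value that stood apart.

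GV and MI differed by limma's test in the RPL19 entry, with MI minus GV at 2.97 on the log2 scale (adjusted p = 0.00492), and in the RPS18 entry, at -4.27 (adjusted p = 1.98e-05). Both names are carried by several entries.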

How the results depend on the processing

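Against 252 entries higher and 1807 lower at MII (35 and 703 of them also called from GV and from MI on their own), a pseudocount of 0.1 gave 102 higher, with 9 and 341 on their own. Median-of-ratios scaling gave 846 lower, with 226 on their own. Fits of the 7 oocytes alone gave 1149 and 3186 by stage (415 and 1761 on their own) and 964 and 2837 with GV and MI as 1 group. Leaving out Mo library 2, a morula whose spread enters the shared estimate, gave 479 higher, with 100 and 1132 on their own. Without limma's trend and robust settings 54 were higher on their own. Leaving out each oocyte library gave 105 to 192 higher and 922 to 1399 lower, and 6 to 35 and 136 to 540 on their own. Where a stage was left with 1 oocyte, that oocyte is assumed to vary like the other stages. The cause of these changes was not tested.

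Same-numbered oocytes correlated from -0.07 to 0.04 in their deviations. With 2 libraries at GV and at MI, the deviations within a stage mirror each other, so these values cannot show whether same-numbered oocytes share a donor. With the replicate number as a block 206 entries rose and 1733 fell (27 and 665 on their own).

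Of 100 called named genes 76 kept the call in all 17 alternatives and 80 without each oocyte library. Apart from the panel, these genes were chosen for the largest differences or the smallest adjusted p, which favours keeping a call. Among all entries that rose or fell, the share that remained without each oocyte library was smaller. The log2 differences of 2 genes that were not called reversed: LSM14B without GV library 2 (-0.10, and up to 0.37 without another library) and BUB1B without MII library 2 (-0.021, and up to 0.39). At these depths 1 read in a short, scarce transcript is a sizeable share of its value, which limits the entries under 1 RPKM.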
